A study of Sus scrofa domesticus with 150 samples.

Results

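The wound-activated stress keratins described here are KRT6A, KRT6C, KRT16 and KRT17. Each was searched for among the 30461 gene rows of the table by its symbol, which comes from the name column or, for unnamed rows, from the gene name of the matching protein that the description quotes. Of the 4 keratins only KRT6C (ENSSSCG00025066379) has a row. For KRT6A, KRT16 and KRT17, 0 rows carry the symbol and 0 rows name it in the description, so these 3 were not analysed here. The report therefore follows KRT6C across all 29 day and location states of the experiment.

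Keratins are intermediate filament proteins that assemble from pairs of a type I and a type II chain. Basal cells of resting epidermis use KRT5 with KRT14, and the layers above them switch to KRT1 with KRT10. After injury, keratinocytes at the wound margin turn on the type II KRT6 paralogs together with the type I keratins KRT16 and KRT17, and this set is used as a marker of activated, migrating or hyperproliferative epidermis. The same keratins are made without injury in parts of the hair follicle, in nail and in sole skin.

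The animals were 6 female domestic pigs of a Yorkshire mix, whose ages are not given in the sources used here, and no group carried a transgene or a drug treatment. Each animal received 12 circular full-thickness wounds on the back, all covered with Telfa Clear and Tegaderm, and an antibiotic ointment was put on sites of biopsy. The 6 day 0 samples are the whole skin excised at wounding, 1 per animal. Later samples are biopsies of the wound edge and of the wound center, 1 of each from 72 wounds on 14 days. Days 1 to 13 have 6 wounds each, 2 from each of 3 animals, and days 15, 16, 19 and 21 have 3 wounds each, 1 from each of 3 animals. Animals 1 to 3 gave days 1, 3, 5, 7, 11, 15 and 21, and animals 4 to 6 gave days 2, 4, 6, 9, 13, 16 and 19. A difference between a day of one series and a day of the other can therefore not be told apart from a difference between the animals. Samples of a state that share an animal are not independent, and p-values measure the spread between samples. A sampled wound was not sampled again, so no wound was followed over time.

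Total counts ranged from 13133379 to 24895572 per sample. Levels are given as log2(1 + CPM), where CPM is the read count scaled to the same library total in every sample, and comparisons between genes use FPKM, which is scaled by gene length. The labelled tissue was checked against marker lists of the cell types of skin. Keratinocyte markers (11 of 12 found, KRT14 absent) summed to 18139 to 29920 CPM on day 0, 280 to 32563 CPM at the edge and 129 to 18150 CPM in the center, with 0 markers at 0 in any state. Fibroblast markers (10 of 10 found) had medians of 71115 CPM at the edge and 94717 CPM in the center. In bulk tissue, fewer keratinocytes and less RNA per keratinocyte cannot be told apart.

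In 4 libraries of days 1, 3 and 11 the sum of keratinocyte markers lay far from those of their replicates. Replicate 6 of day 3 edge had 280 CPM of keratinocyte markers, against 7316 to 23501 CPM in the other 5 libraries, and 14205 CPM of adipocyte markers, against 1883 to 3731. Replicate 4 of day 3 center had 15569 CPM of keratinocyte markers, against 176 to 1242 CPM. Replicate 1 of day 11 center had 16424 CPM, against 174 to 347 CPM, and replicate 5 of day 1 center had 8884 CPM, against 178 to 405 CPM. The first of these libraries was low for an edge library and the others were high for center libraries. The center library of day 1 stayed below the day 1 edge, where the sum was 21252 to 32524 CPM, and day 11 center reached at most 3797 CPM of suprabasal markers, against at least 20121 CPM at the day 11 edge. Values without these libraries are given below for the comparisons on days 1, 3 and 11, the interactions, the mean per animal and the likeness.

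Skeletal muscle markers (8 of 9 found) set another group of libraries apart. Their sum exceeded 1000 CPM in 10 libraries, 8 from the center and 2 from the edge, with 1334 to 70596 CPM against at most 414 CPM in all others. KRT6C lay within the range of its replicates in 9 of the 10 and below it in 1, replicate 2 of day 2 center (2.81, against 2.93 to 5.83). Without these 10 libraries the numbers of states in which edgeR called KRT6C were the same in each direction, for edge against center and for either location against day 0.

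The KRT6C row lies on contig LUXX01086989.1 from position 12341 to 17623 on the plus strand, with a summed exon length of 2223 bases, and its genome build is not given in the sources used here. It was named through its best match to the human protein K6C. The RefSeq annotation of the pig assembly Sscrofa11.1 holds 1 gene called KRT6A, directly beside KRT5 with 0 genes between them, and 0 genes called KRT6C, KRT6B, KRT16 or KRT17. The symbol of the row is thus that of the nearest human paralog and does not tell which pig KRT6 gene it is. A second KRT6 row, KRT6B (ENSSSCG00025060143), lies on contig LUXX01048831.1 from 2096238 to 2097686, next to KRT5 (2078081 to 2085192), and covers 333 bases. KRT75, a close type II relative, has rows further along the contig of KRT6C. The KRT6 paralogs are nearly identical, so the counting could have split or shared their reads, and the values of KRT6C and KRT6B are uncertain to that extent.

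KRT6C was among the most abundant transcripts of the experiment. With 15322602 counts over all samples it held place 9 of all rows, above KRT5 with 11492889 counts. In unwounded skin the lowest, median and highest levels were 8.90, 9.81 and 9.96 on the log2(1 + CPM) scale (mean 9.60 ± 0.45, SD, n = 6). The day 0 values did not separate the 2 sets of animals: animals 1 to 3 had 9.74, 8.90 and 9.88, and animals 4 to 6 had 9.96, 9.96 and 9.16. By mean FPKM KRT6C held place 134 of all rows on day 0.

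At the wound edge KRT6C was high within a day of wounding. On day 1 its levels ran from 12.12 through a median of 13.03 to 13.78, all above the day 0 range. Among animals 1 to 3 the edge medians were 12.83 (day 3), 12.90 (day 5), 13.46 (day 7) and 13.60 (day 11). Among animals 4 to 6 they were 12.73 (day 2), 13.13 (day 4), 13.64 (day 6), 13.12 (day 9) and 14.04 (day 13). Day 13 thus had the highest edge median, with samples from 12.20 to 14.86. Among the 60 edge libraries of days 1 to 13, only replicate 6 of day 3 (4.59) lay below every other edge library of these days, and it is one of the libraries that stood apart. By mean FPKM KRT6C was the first of all rows at the edge on days 6 and 13 and held places 2 to 6 on the other days through day 13. Its share of all counts reached a median of 1.70% on day 13, against 0.0899% on day 0.

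The median levels of the late edge samples differed between the animal series, but single samples overlapped (11.30 on day 15, 10.58 on day 19). On day 15 the 3 edge samples of animals 1 to 3 had 11.30, 9.21 and 9.73, and on day 21 those of the same animals had 10.005, 8.11 and 9.01. Both states overlapped the day 0 range. On day 16 the edge samples of animals 4 to 6 had 15.26, 13.47 and 12.64, and on day 19 they had 14.44, 13.80 and 10.58. All of these lay above the day 0 range. Since days 15 and 21 come from other animals than days 16 and 19, time and animal cannot be told apart here. Marker sums of the edge samples differed as well. Hair follicle markers had medians of 2886 and 1781 CPM on days 15 and 21 (day 15 from 3.45 to 7647), against 147 and 1.4 CPM on days 16 and 19. Neutrophil and monocyte markers had 245 and 190 CPM, against 487 and 910 CPM. The part of these differences in the KRT6C levels was not tested.

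In the wound center KRT6C was low at first and high late. On day 2 the lowest, median and highest levels were 2.81, 3.34 and 5.83, the lowest median of all 29 states. The lowest single library, in day 3 center at 1.09, still held 21 counts of KRT6C, above a floor of 3 counts. Center medians of the other days through day 11 were 5.66 (day 1), 6.09 (day 3), 6.07 (day 4), 4.89 (day 5), 6.46 (day 6), 5.06 (day 7), 6.09 (day 9) and 5.01 (day 11), all below the day 0 minimum. Day 13 center spread from 6.13 to 12.82 around a median of 8.75, with 3 libraries below the day 0 range and 3 above it. The 3 libraries of day 15 center had 13.75, 13.54 and 9.43, and those of day 16 center had 14.56, 4.36 and 11.61. Day 19 center had 14.43, 13.96 and 11.34, the highest center median, and day 21 center had 12.84, 11.34 and 11.09. The center had thus passed the level of unwounded skin in every library of days 19 and 21.

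**Figure D1:**
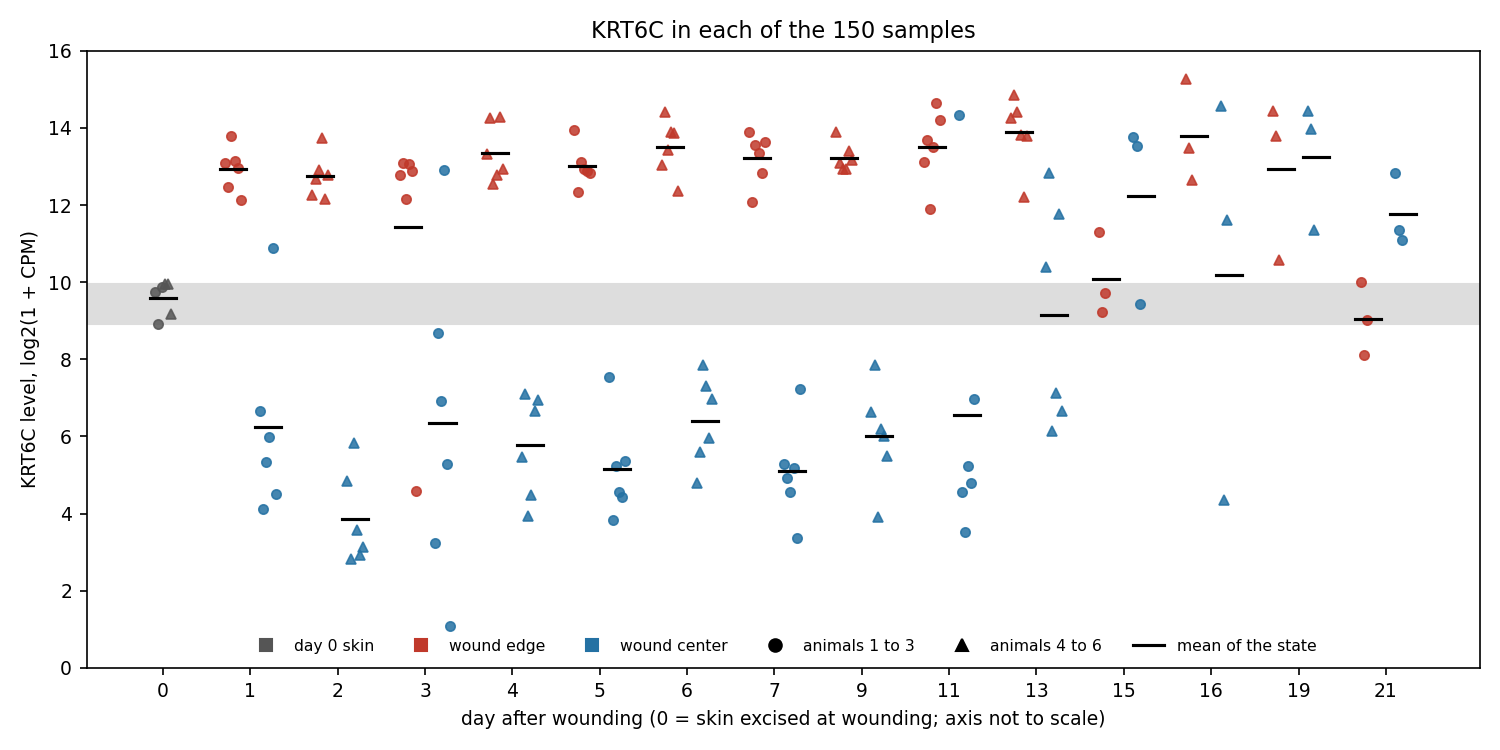
KRT6C level in log2(1 + CPM) in each of the 150 samples by day, for day 0 skin, wound edge and wound center, with black bars for the mean of each state and the grey band for the day 0 range of 8.90 to 9.96. Edge samples through day 13 lie above the band except for replicate 6 of day 3 (4.59), and center samples lie mostly below it until day 11 and above it on days 19 and 21.

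Ordered by median, the 29 states ran from day 13 edge at the top to day 2 center at the bottom. Of the 28 pairs of neighbours in this order, 27 had overlapping ranges, which is a description and no test of a difference. The exception was the step from day 21 center (lowest 11.09) to day 0 skin (highest 9.96). Against the day 0 range, 11 of 14 edge states lay wholly above and 3 overlapped it. Of the center states, 6 lay wholly below, 2 lay wholly above and 6 overlapped.

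The comparison with day 0 asks how far each wound state departed from unwounded skin. All 28 of these comparisons share the 6 day 0 samples, so they are not independent of each other. Calls are Benjamini-Hochberg adjusted p-values below 0.05 from edgeR's quasi-likelihood test over all genes tested, and the share of all genes called in the same direction is given beside each, which the single call of KRT6C is to be read against. Its fold change compares fitted mean counts, in which a high library weighs more than in a mean of log2 values.

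KRT6C was higher at the edge than on day 0 in 12 of 14 states. On day 1 the log2 fold change was 3.27 ± 0.30 (SE, adjusted p = 9.32e-06), a 9.66-fold difference, while 26.4% of all genes were called higher. The other early values were 3.09 for day 2 (23.0% of all genes), 2.81 for day 3 (27.3%), 3.82 for day 4 (25%) and 3.37 for day 5 (29.3%). Later values were 3.92 for day 6 (27.2%), 3.67 for day 7 (28.1%), 3.70 for day 9 (23.5%), 4.21 for day 11 (23.1%) and 4.58 ± 0.43 for day 13 (24.6%, adjusted p = 5.27e-06). Day 13 corresponds to a 23.9-fold difference. Day 16 had the largest value with 4.85 ± 0.55 (15.0%, adjusted p = 0.000258), and day 19 had 4.22 ± 0.59 (18.0%, adjusted p = 0.000456). The call was not made on day 15 (0.76 ± 0.45, adjusted p = 0.283, with 10.2% of all genes called higher) or on day 21 (-0.24 ± 0.39, adjusted p = 0.675, with 15.3% higher). With the animal as a block, day 3 was no longer called (2.88, adjusted p = 0.158), and without the edge library that stood apart it was 3.08 (adjusted p = 6.4e-06). Without replicate 1 (animal 4), the day 16 value was 3.58 and the day 19 value 3.52, both still called.

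The center first held less KRT6C than unwounded skin and later more. It was lower on day 2 with a log2 fold change of -5.60 ± 0.62 (adjusted p = 6.37e-06), while 29% of all genes were called lower. Lower calls followed on day 4 (-3.63, 33.9% of all genes), day 5 (-4.06, 36.3%), day 6 (-2.97, 32.2%), day 7 (-4.07, 35.8%) and day 9 (-3.13, 30.6%). It was higher on day 15 (3.54 ± 0.67, adjusted p = 0.00169, 26.1% called higher), day 16 (3.69 ± 1.17, adjusted p = 0.0236, 26.8%), day 19 (4.27 ± 0.53, adjusted p = 0.000153, 21.4%) and day 21 (2.51 ± 0.40, adjusted p = 0.000698, 21.0%). With the animal as a block the calls of day 15 (3.16, adjusted p = 0.16) and day 16 (1.88, adjusted p = 0.624) were lost. Day 16 also rested on replicate 1, without which it was 1.04 (adjusted p = 0.481), and replicate 3, without which the adjusted p was 0.0539. Without replicate 1 the day 21 value was 1.71, still called. In 1 fit across all 150 samples the day 21 call was lost (adjusted p = 0.0939).

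On 4 days the center was not called against day 0, and single libraries set the direction on several of them. The values were -1.40 on day 1 (adjusted p = 0.258, 32.1% of all genes lower), 0.63 on day 3 (adjusted p = 0.723, 30.3% higher), 2.17 on day 11 (adjusted p = 0.268, 31.2% higher) and 1.48 on day 13 (adjusted p = 0.201, 30.1% higher). Without replicate 5 the day 1 value was -4.16 (adjusted p = 3.02e-05), and without replicate 4 the day 3 value was -2.91 (adjusted p = 0.0411). Without replicate 1 the day 11 value was -4.13 (adjusted p = 0.000169). KRT6C in the centers of days 1, 3 and 11 was thus called lower than on day 0 only without the library that stood apart. That library also had the highest KRT6C level of its state (10.90, 12.90 and 14.32). Leaving it out was bound to lower the value, so these fits do not settle the direction. The blocked values of days 3, 11 and 13 were -3.03, -2.92 and -0.20, none of them called.

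The comparison of edge and center asks where in the wound the keratin was made. KRT6C was higher at the edge in 64 of 72 wounds, in 59 of 60 through day 13 and in 5 of 12 from day 15 on. Averaged over the 12 wounds of an animal, the difference of log2(1 + CPM) was 5.17, 5.30, 5.65, 5.71, 7.17 and 5.73 in animals 1 to 6. Its mean was 5.79 ± 0.71 (SD, n = 6 animals), and all 6 animals had a higher edge (exact permutation test flipping the signs of the animals, two-sided, p = 0.0312, which is the lowest value possible here). Without the 4 wounds of the libraries that stood apart it was 6.06, with the same p by exact permutation.

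Day by day, edgeR called KRT6C higher at the edge on 8 of 14 days. Day 2 had the largest log2 fold change, 8.67 ± 0.74 (adjusted p = 1.2e-06), a 407-fold difference, where 17.8% of all genes were called higher at the edge. The other clear days were day 4 with 7.42 (16.4% of all genes), day 5 with 7.40 (20.3%), day 6 with 6.90 (10.3%), day 7 with 7.78 (20.4%) and day 9 with 6.86 (17.3%). On these 6 days and on day 1 the edge and center ranges did not overlap. Day 1 had 4.57 ± 1.23 (adjusted p = 0.00931, 24%), and 7.49 without replicate 5. On day 13 the value was 3.16 ± 1.07 (adjusted p = 0.0427, 16.6%), a call that was lost when any of replicates 1, 3, 4, 5 or 6 was left out (adjusted p from 0.0636 to 0.117) and when the wounds of an animal were summed (adjusted p = 0.126). The wound as a block gave 7.11 on day 1 and 5.00 on day 13, both called.

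Days 3 and 11 were not called, and both values changed without the libraries that stood apart. Day 3 had a log2 fold change of 2.13 ± 1.67 (adjusted p = 0.573), with 0.0% of all genes called higher at the edge. In all, edgeR called 0 genes in either direction on that day, with 1667 genes at an unadjusted p below 0.05, and DESeq2 called 1. The 6 edge samples ran from 4.59 to 13.09 and the 6 center samples from 1.09 to 12.90, yet the edge was higher in 6 of 6 wounds. Without both day 3 libraries that stood apart the value was 6.04 (adjusted p = 0.00884). Day 11 had 2.04 ± 1.68 (adjusted p = 0.346, 20.6% of all genes), against 8.50 without replicate 1 (adjusted p = 2.47e-05) and 8.06 with the wound as a block (adjusted p = 0.00601).

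From day 15 on no day was called in the main comparison, and the sign varied. The edge was higher in 1 of 3 wounds on day 15 (-2.77 ± 1.15, adjusted p = 0.137, 7.55% of all genes called higher), 3 of 3 on day 16 (1.16 ± 1.82, adjusted p = 0.700, 4.21%), 1 of 3 on day 19 (-0.05 ± 0.96, adjusted p = 0.998, 0.0%) and 0 of 3 on day 21 (-2.76 ± 0.66, adjusted p = 0.281, 0.0684%). On day 19 edgeR called 0 genes at all, with 479 at an unadjusted p below 0.05, and DESeq2 called 9. On day 21 the 3 center values (12.84, 11.34 and 11.09) all lay above the 3 edge values (10.005, 8.11 and 9.01). With the wound as a block that day was called lower at the edge (-2.72, adjusted p = 0.0120). DESeq2 called both day 15 (adjusted p = 0.0144) and day 21 (adjusted p = 0.0388) lower at the edge.

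**Figure D2:**
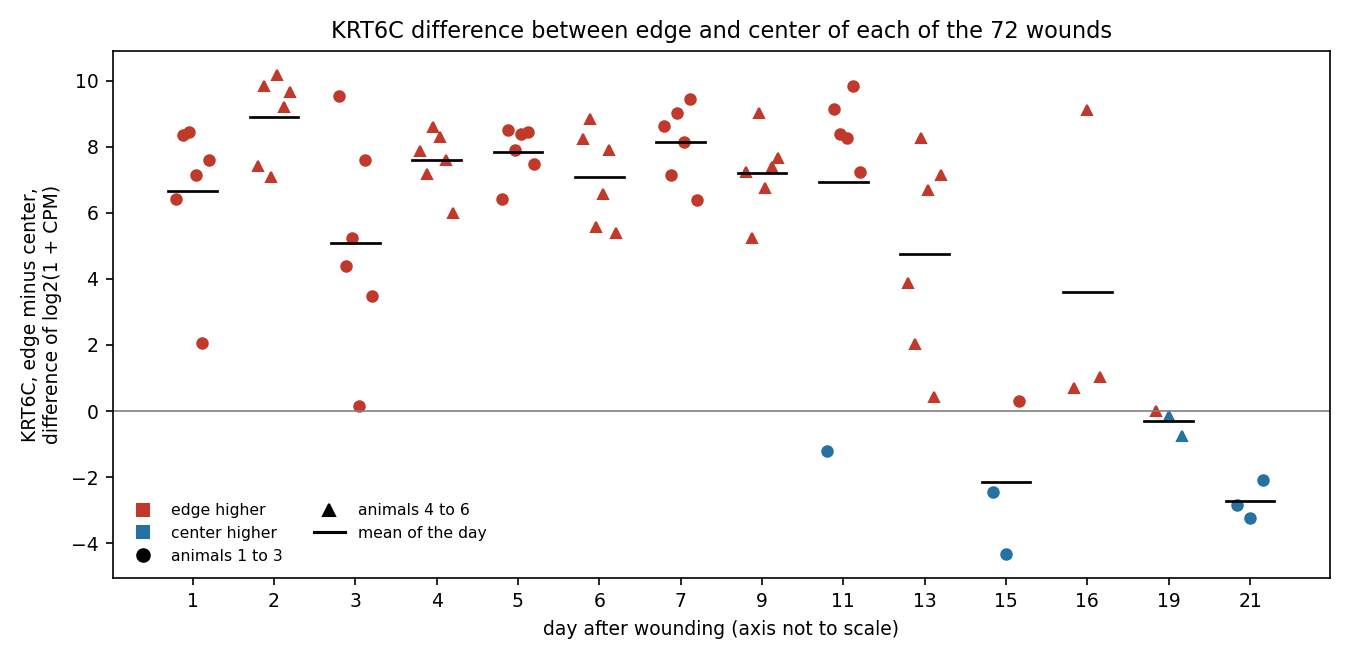
Edge minus center of KRT6C, as a difference of log2(1 + CPM), in each of the 72 wounds by day, with a black bar for the mean of each day. The edge was higher in 59 of 60 wounds through day 13, and the 3 wounds of day 21 lie below 0, from -3.24 to -2.08.

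The change of the edge to center difference over time was tested as an interaction, in 1 fit of all samples. Between day 1 and day 21, both sampled in animals 1 to 3, it fell by 7.40 ± 2.05 on the log2 scale (adjusted p = 0.00691), while 8.76% of all genes were called in that direction. Between day 2 and day 19, both in animals 4 to 6, it fell by 8.69 ± 2.14 (adjusted p = 0.00316, 6.99% of all genes). Earlier intervals were not called, with 3.12 ± 1.48 from day 1 to day 7 (adjusted p = 0.141) and -1.82 ± 1.46 from day 2 to day 9 (adjusted p = 0.489). Without the 4 libraries that stood apart the values were 0.29 for day 7 against day 1 (adjusted p = 0.918), -10.23 for day 21 against day 1 (adjusted p = 5.7e-07), -1.80 for day 9 against day 2 and -8.68 for day 19 against day 2. The edge excess was thus smaller on the last day sampled than on the first in both animal series.

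KRT6C moved between locations together with the keratinocyte content of the sample. Summed keratinocyte markers had a median of 20497 CPM over the 72 edge samples and 311 CPM over the 72 center samples, and suprabasal markers (8 of 10 found) had 34041 and 129 CPM. KRT5, the type II keratin of basal cells, differed between edge and center by 6.26 ± 0.51 per animal, next to 5.79 ± 0.71 for KRT6C. The log2 ratio of KRT6C to KRT5 was lower at the edge in 6 of 6 animals, with a mean difference of -0.47 ± 0.30 (exact permutation test over animals, p = 0.0312). This mean pools unlike days: the mean difference of the ratio lay between -0.49 and 0.07 on each day through day 13, but was -3.56 on day 15 and -2.95 on day 21. Over days 1 to 13 alone the mean over animals was -0.21 ± 0.19 (SD, n = 6 animals, exact permutation test, p = 0.0312), with a value close to 0 in animal 2. Per KRT5, the edge excess of KRT6C was therefore not present.

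Measured per KRT5, KRT6C was above unwounded skin in the edge and in the center alike. On day 0 the log2 ratio ran from -4.47 through a median of -3.25 to -2.59, a median of 0.105 KRT6C counts per KRT5 count. On day 1 the edge had -1.07 to -0.03 (median -0.78) and the center -0.92 to -0.09 (median -0.63), with no overlap with day 0. These medians were 5.52 and 6.17 times that of day 0. On day 13 the edge had a median of 2.79 KRT6C counts per KRT5 count, 26.5 times that of day 0, and the center had 2.72. The ratio was higher than on day 0 in 13 of 14 edge states and in 14 of 14 center states (two-sided exact permutation test, adjusted over 28 states, p = 0.00303 for each state of days 1 to 13). Before adjustment this permutation p was 0.00216, the smallest that these sample numbers allow. The 2 wounds of an animal entered it as separate samples. Library 6 of day 3 center, with under 50 KRT5 counts, was left out of this test.

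On days 15 and 21 the ratio was lower at the edge than in the center in every wound of animals 1 to 3, while days 16 and 19 of animals 4 to 6 showed mean differences of -0.47 and -0.13. At the edge of day 15 it was -0.84, -2.99 and -2.37 (difference from day 0 1.32, exact permutation test, adjusted p = 0.0370), and at the edge of day 21 it was -2.13, -3.71 and -2.41 (0.64, adjusted p = 0.226). In the center of day 15 it was 1.45, 1.71 and 1.32, and in the center of day 21 it was 1.25, 0.09 and -0.73. The late center states all passed the test against day 0 at an adjusted p of 0.0128, which comes from the smallest p that 3 against 6 samples allow (0.0119). In the other animal series the edge ratios were 2.05, 0.36 and 0.03 on day 16 and 2.04, 1.32 and -0.65 on day 19, next to center values of 1.76, 0.69 and 1.40 on day 16 and 1.89, 1.52 and -0.31 on day 19.

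**Figure D3:**
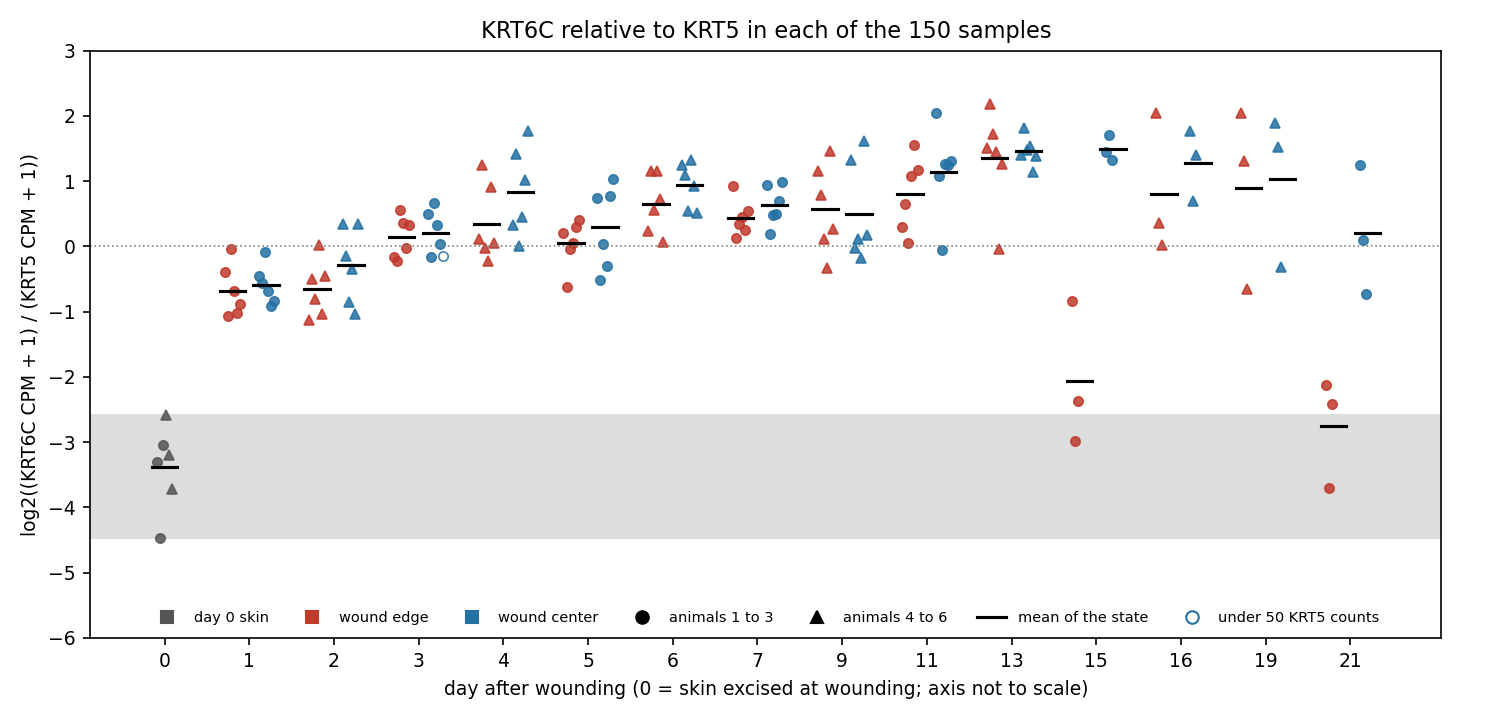
Log2 ratio of KRT6C to KRT5, each as CPM + 1, in each of the 150 samples by day, with black bars for the means and the grey band for the day 0 range of -4.47 to -2.59. Both locations rise above the band from day 1, and the edge samples of days 15 and 21 range from -3.71 to -0.84, 5 of the 6 at or below -2.13, while the center samples of the same days lie between -0.73 and 1.71.

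Steps between successive sampled days of the same animals were compared as well, 24 in all. None passed after adjustment over the 24 steps (exact permutation tests), for the level with 3 at an unadjusted p below 0.05 and for the ratio with 7. The largest fall at the edge was from day 11 to day 15, from 13.51 to 10.08 (permutation p = 0.0119, adjusted 0.286). The rise of the center from day 9 to day 13, from 6.01 to 9.15, had p = 0.0476 (exact permutation test, adjusted 0.381). For the ratio, the steps from day 1 to day 3 at the edge (0.82) and in the center (0.86) and from day 2 to day 4 at the edge (1.00) had the smallest adjusted p, 0.0519 by exact permutation.

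KRT6B, the other KRT6 row, followed KRT6C closely. Its levels on day 0 ran from 5.74 through 7.46 to 7.94, and at the edge of day 1 from 9.26 through 10.05 to 10.72, with no overlap. It was called higher than day 0 on 11 of 14 edge days, by 2.19 to 3.42 on the log2 scale, with the largest value on day 16 (3.42 ± 0.57, adjusted p = 0.00201). It was not called on days 3, 15 and 21 (1.75, -0.39 and -1.22). Its difference between edge and center was 5.69 ± 0.79 per animal, in 6 of 6 animals. The share of KRT6B in the counts of both rows had a median of 17.5% on day 0 and of 12.2% at the edge of day 1, and lay between medians of 7.97% and 10.4% in the later edge states. Per length both rows were alike on day 0, with medians of 409 FPKM for KRT6C and 531 FPKM for KRT6B.

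By a likeness rule over the 29 state means, 5 genes with a symbol had the profile closest to that of KRT6C among 13517 genes. Pearson's r was 0.996 for KRT6B, 0.986 for GJB2, which encodes the gap junction protein connexin 26, 0.976 for the row named KRT15, 0.971 for NGEF and 0.970 for DUOXA1, which is needed for maturation of the dual oxidase DUOX1. KRT5 had 0.939 (place 43), KRT1 0.854 and KRT10 0.845. These values are descriptions, since the states share animals and all epithelial genes share the keratinocyte content of the samples. The means of GJB2 were 6.76 on day 0, 5.31 to 9.01 over the edge states and 0.80 to 7.83 over the center states. Without the 4 libraries that stood apart the same 5 genes led, with r from 0.973 to 0.996. NGEF and DUOXA1 were far lower than KRT6C, with day 0 means of 2.81 and 2.91. The KRT15 row (ENSSSCG00025027685) spans 81529 bases of contig LUXX01049411.1, from 235046 to 316574, and another row lies inside it, so its counts may not be those of KRT15 alone. In the pig assembly Sscrofa11.1, RefSeq places 7 genes between KRT15 and the gene EIF1, of which only KRT19 carries a keratin name. Whether the KRT15 row holds reads of KRT16 or KRT17 was not tested.

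Set against the keratins of resting epidermis, KRT6C changed rank on part of the days. Per length KRT10, the suprabasal type I keratin, had a median of 8744 FPKM on day 0 and KRT5 one of 2773 FPKM, against 409 FPKM for KRT6C. At the edge of day 13 KRT6C had a median of 8822 FPKM, above KRT10 with 4841 and KRT5 with 2298. The edge median of KRT6C was also above that of KRT10 on days 6 (5582 against 3589) and 7 (5040 against 4910). On all other days it was below, for example on day 1 (3344 against 6674) and day 11 (6091 against 10002). KRT5 itself was called higher than day 0 at the edge only on day 1 (0.55) and lower on 2 days, and KRT1 and KRT10 were called lower on 2 days each and higher on 0. In the center of day 15 KRT6C had 5757 FPKM and KRT10 532, and in that of day 16 they had 1458 and 33.1. On day 19 they had 7906 and 2090, and on day 21 KRT6C had 1272 against 8909 for KRT10. The center median of KRT6C was thus above that of KRT10 from day 13 to day 19 and below it on day 21, as a description with no test. At low levels it was also above KRT10 on days 4, 6 and 9 (31.3, 42.2 and 31.7 FPKM, against 20.7, 23.9 and 21.1). On the other center days through day 11 it was below.

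**Figure D4:**
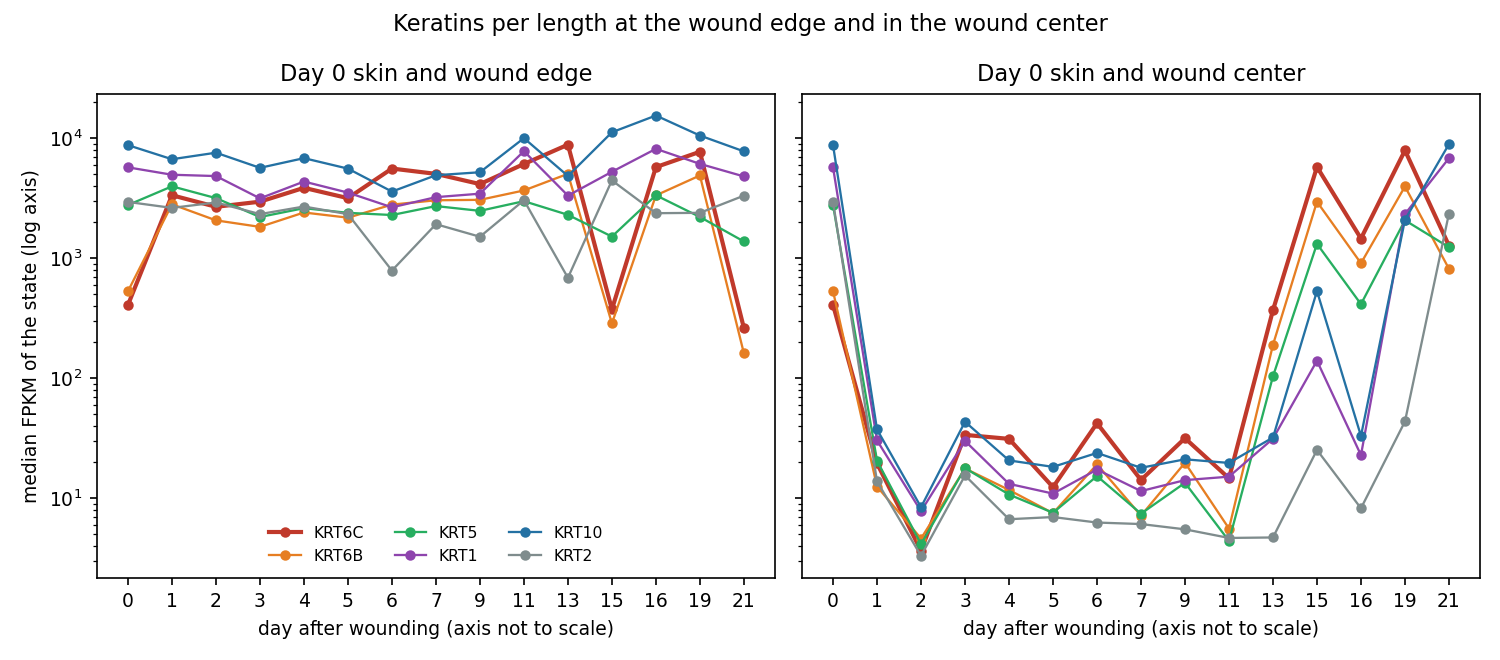
Median FPKM (log axis) of KRT6C, KRT6B, KRT5, KRT1, KRT10 and KRT2 by day on day 0 and at the wound edge (left) or in the wound center (right). At the edge KRT6C goes from 409 FPKM on day 0 to 8822 FPKM on day 13, while KRT5 stays between 1378 and 3969 FPKM, and in the center all 6 are low until day 11.

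Other keratins of the epidermis, 16 of 20 listed genes found, mostly did not follow KRT6C at the edge against day 0. In the other comparisons they followed it on some days. On day 4, 14 of 14 rows tested were higher at the edge than in the center (16.4% of all genes), as KRT6C was. In the center of day 4, 15 of 15 were lower than on day 0 (33.9% of all genes), again as KRT6C was. Late days differed. On day 15, 7 of 14 were higher at the edge than in the center, where KRT6C was not called. In the center of day 19, 3 of 17 were higher than on day 0 and 10 were lower, while KRT6C was higher. At the edge of day 1, 4 of the 16 rows tested were higher than on day 0 and 7 were lower (background 26.4% and 23.9%), with a median log2 fold change of -0.76, against -0.01 over all genes. On day 2, 3 were higher and 6 lower (23.0% of all genes higher and 22.7% lower). On day 21, 0 of 17 were higher and 10 were lower (15.3% of all genes higher and 13.0% lower). The KRT15 row was higher on 10 days and lower on days 15 (-0.73) and 21 (-1.02). Besides KRT6B, KRT78, a type II keratin of stratified epithelia, was higher on 11 days, by up to 4.58 ± 0.87 on day 13 (adjusted p = 0.00083). KRT75, a keratin of the hair follicle companion layer, was lower on 13 days, by up to -8.26 ± 1.19 on day 19 (adjusted p = 0.000545). KRT77 was lower on 13 days, to -7.05 on day 19, and KRT80 on 13 days, to -2.56 on day 6. The hair follicle markers (11 of 12 found) include KRT75 itself. Their sum went from a median of 12872 CPM on day 0 to 737 CPM at the edge of day 1. At the edge of day 13 the median was 1.4 CPM, with 5 of the markers at 0. The part of these markers in the differences was not tested.

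Inducers and regulators of the stress keratins, 30 of 30 listed found, included calls in both directions at the edge. On day 1, 14 of 28 rows tested were higher than on day 0 and 8 were lower (background 26.4% and 23.9%), with a median log2 fold change of 0.33, against -0.01 over all genes. On day 2 the numbers were 9 and 10 of 27 (23.0% and 22.7%), and on day 21 they were 3 and 10 of 25 (15.3% and 13.0%). TNF, an inflammatory cytokine, was higher on 13 days, by 3.89 ± 0.82 on day 3 (adjusted p = 0.00214) from a day 0 level of 0.69 ± 0.17. STAT3, which signals below cytokines of the interleukin-6 family, was higher on 12 days, by at most 0.87 ± 0.16. KLF4, a factor of epidermal differentiation, was lower on 14 days, to -2.01 ± 0.21 on day 6 (adjusted p = 4.43e-06). EGFR, the receptor of epidermal growth factor, was lower on 14 days, to -1.33 ± 0.15 on day 6, and NR3C1, the glucocorticoid receptor, on 13 days, to -1.31 ± 0.18 on day 13.

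Other genes of the activated keratinocyte, 30 of 36 listed found, were mostly higher at the edge than on day 0, as KRT6C was. On day 1, 19 of 29 rows tested were higher than on day 0 and 1 was lower (background 26.4% and 23.9%), with a median log2 fold change of 1.36, against -0.01 over all genes. On day 13, 24 of 30 were higher and 2 lower (24.6% and 24.1%, median 2.12), and on day 21, 12 of 29 were higher and 7 lower (15.3% and 13.0%, median -0.10). S100A9 and S100A8, the calprotectin subunits, were higher on 14 of 14 days, by 10.29 ± 0.74 and 9.60 ± 0.77 on day 13. MMP1, an interstitial collagenase, was higher on 14 days, by 10.39 ± 0.25 on day 1 (adjusted p = 2.63e-11). Neutrophils also make calprotectin: summed neutrophil and monocyte markers, a list that holds both S100 genes (9 of 10 found, 0 at 0 in any state), went from a median of 103 CPM on day 0 to 1707 CPM at the edge of day 1 and 3886 CPM on day 13, and their part was not tested. TGM3, an epidermal transglutaminase, was lower on 7 days and higher on 1, and SERPINB2, a protease inhibitor, was lower on 5 days. LAMA3, the alpha chain of laminin 332, was lower on 3 days, to -0.72 ± 0.20 on day 21 (adjusted p = 0.0249).

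Over the 14 edge states the share of all genes called higher than on day 0 was 10.2% to 29.3%, and the share called lower was 5.78% to 28.1%. With the animal as a block, the number of days called in the main direction went from 10 to 6 for KRT15 (higher), from 13 to 8 for KRT75, from 13 to 8 for TNF, from 7 to 4 for TGM3 and from 3 to 1 for LAMA3. KRT6C itself was called higher on 11 edge days under the block and on 12 without it.

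**Figure D5:**
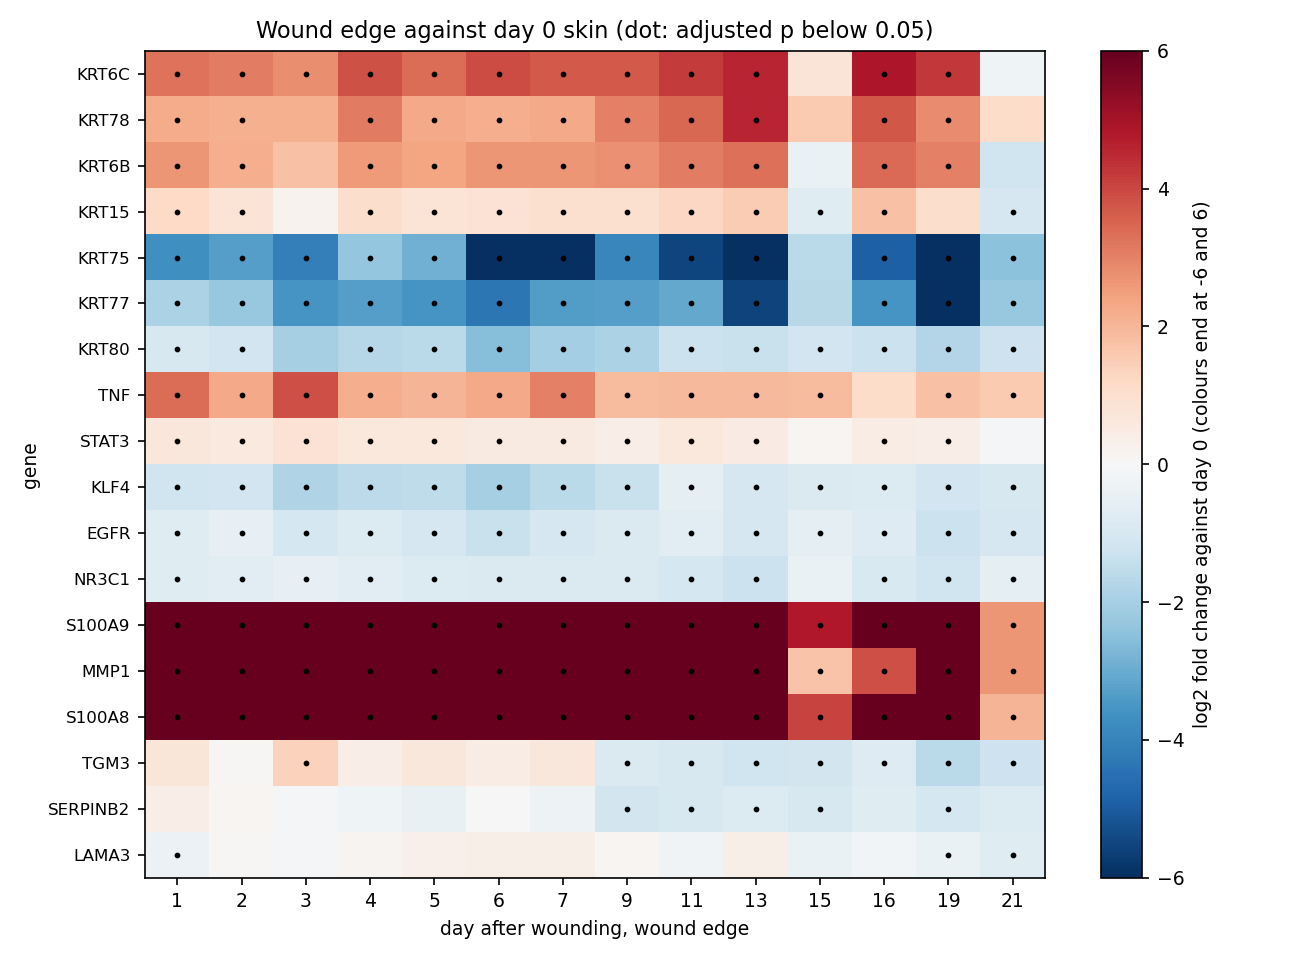
Log2 fold change of the wound edge against day 0 skin for KRT6C and genes named from the 3 lists on each of the 14 days, with a dot where the adjusted p was below 0.05 and colours ending at -6 and 6. KRT6C carries a dot on 12 days and is pale on days 15 and 21 (0.76 and -0.24), and S100A9, S100A8 and MMP1 carry a dot on 14 days.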

How the data were processed

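Poly-A RNA from whole pig skin (day 0) and from biopsies of wound edge and center was sequenced in bulk, 150 libraries in all. The deposited read counts per gene are raw, and come from reads that the sequencing provider of the authors filtered and aligned. The FPKM values were deposited beside them, and equal the counts divided by gene length and total count, multiplied by a further factor of 0.845 to 1.307 for each sample whose origin is not given in the sources used here. The aligner, the counter and the genome build are not given in the sources used here, nor is whether counting used strand. Groups come from the sample labels (day, location, animal and wound), 0 libraries had identical counts and 0 sample columns were left unused. Depth was 13133379 to 24895572 counts per library, and every library held at least 21 KRT6C counts.

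Counts were tested with edgeR 4.0.16 (limma 3.58.1, R 4.3.3) after TMM scaling and filterByExpr (minimum count 10, minimum total 15), by the quasi-likelihood F-test with Benjamini-Hochberg adjustment over all genes tested and a threshold of 0.05. Each day (edge against center) and each state (against day 0) had its own fit, and the interaction one fit of all 150 samples. An adjusted p-value with no other test named comes from edgeR. Levels are log2(1 + CPM). The ratio of KRT6C to KRT5 adds 1 to each CPM. Samples with fewer than 50 KRT5 counts were left out of its tests against day 0 and of its steps between days. They were kept in its medians and in its edge minus center differences. KRT14 has no row, so KRT5 alone served as the basal reference. Only 1 member has a row, so shares among members and a balance of type II to type I members were not computed. Ratios, steps and animal means were tested by exact permutation (Python 3.11.15, scipy 1.17.1, numpy 2.4.6, pandas 2.3.3; plots with matplotlib 3.10.9).

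The labels give edge and center the same wound and wounds the same animal, so wound (edge against center) and animal (against day 0) pair the samples. Deviations of edge and center of a wound from their group means correlated with a mean r of 0.278 over 14329 genes, above 0 in 63 of 72 wounds. Genes named besides the members are the 5 with the profile most like KRT6C among those with a mean of at least 1 CPM, and from each list up to 3 in each direction with the largest log2 fold change among those called on the most days, plus KRT5, KRT1 and KRT10, and 1 gene that meets this rule is not reported here. The members and lists were chosen with earlier results of these data known. Symbols came from the name column for 12300 rows and from the description for 9387. Alternatives were no TMM, no filter, DESeq2 1.42.0, one fit of all samples, the block, wounds summed per animal, other pseudocounts and units, and leaving out each replicate. The steps between days, the ratio over days 1 to 13 and the removal of the libraries that stood apart by keratinocyte or muscle markers (over 1000 CPM) were added after seeing the data. The scripts were tested on simulated data.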

Additional observations from a re-analysis of the deposited data

Results flagged for a closer look

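Among 42 sets of 6 values, the KRT6C level and its ratio to KRT5 in each group of 6 libraries, 3 held a level whose gap to the nearest other library exceeded Dixon's critical value as a share of the range. Chance gives about 1 such set in 20, here 2.1 of 42. Replicate 5 of day 1 center had a level of 10.90, against 4.13 to 6.66 in the other 5 libraries, and its gap took 0.626 of the range. Replicate 6 of day 3 edge had 4.59, against 12.15 to 13.09, with a gap of 0.889. Replicate 1 of day 11 center had 14.32, against 3.51 to 6.96, with a gap of 0.681. The log2 ratio of KRT6C to KRT5 in these libraries was -0.92, 0.32 and 2.04.

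The difference of KRT6C between edge and center itself differed between days in edgeR's interaction test with Benjamini-Hochberg adjustment. It was -7.40 on the log2 scale for day 21 against day 1 (adjusted p = 0.00691) and -8.69 for day 19 against day 2 (adjusted p = 0.00316).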

How the results depend on the processing

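Calls for KRT6C against day 0 at the edge were the same in number (12) under every alternative except the replicate block (animal), which gave 11. Edge higher than center was called on 8 days, on 9 with the replicate block (wound), 7 with wounds summed per animal, 10 without 3 of the libraries that stood apart, and 7 to 8 when each replicate was left out. These 3 libraries were replicate 6 of day 3 edge, replicate 4 of day 3 center and replicate 1 of day 11 center. Replicate 5 of day 1 center was kept in this setting. Edge lower than center was called on 0 days, on 2 with DESeq2 and 1 with the replicate block. Center higher than day 0 was called in 4 states, in 2 with the replicate block and in 3 to 4 when each replicate was left out, and center lower in 6 states, in 8 without the 3 libraries and in 6 to 7 when each replicate was left out. The ratio to KRT5 was called in 13 edge and 14 center states, and in 10 to 14 when each replicate was left out. The edge minus center difference per animal was 5.51 to 5.91 without each animal (5.91, 5.89, 5.81, 5.80, 5.51 and 5.80 without animals 1 to 6), with p = 0.0625 by exact permutation, the smallest that 5 animals allow. The direction reversed for center day 3 against day 0 (0.63) with the replicate block (-3.03), without the 3 libraries (-2.95) and without replicate 4 (-2.91, range over replicates left out -2.91 to 1.00). It reversed for center day 11 (2.17) with the replicate block (-2.92), without the 3 libraries (-4.14) and without replicate 1 (-4.13, range -4.13 to 2.53), for center day 13 (1.48) with the replicate block (-0.20), and for edge day 15 (0.76) without replicate 1 (-0.20, range -0.20 to 1.06). The cause was not tested. The replicate block changed the call also for edge day 3, center days 15 and 16, and edge against center on days 11 and 21. KRT14 alone as the basal reference gave no value. Without TMM the median log2 fold change of all genes was -0.30 to 0.19, against -0.06 to 0.04 with it. In 1 fit of all 150 samples KRT15, TGM3, SERPINB2, LAMA3, KRT5, KRT1 and KRT10 were called on 0 edge days. Late states rest on 3 wounds, KRT6C and KRT6B may share reads, and keratinocyte content was not separated from level per cell.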
